A study of Mus musculus with 6 samples.

Results

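Nucleoporins and mRNA export factors were followed through bulk RNA-seq libraries of retinal ganglion cells, the output neurons of the retina, from mice. The members were the rows of the count table with a symbol of the Nup or Thoc series followed by a number, or with 1 of 15 listed symbols such as Nxf1, Nxt1, Rae1 and Tpr. This gave 43 of the 22413 genes in the table. All 6 libraries were of adult animals with the genotype Tgfbr1flx/flx, both alleles being floxed, Tgfbr1 being the type I receptor of transforming growth factor beta. In 3 libraries the mice also carried Vglut2Cre/+, which puts Cre recombinase under the Slc17a6 gene, that of a vesicular glutamate transporter, and these libraries are called knockouts. The other 3 libraries came from Vglut2+/+ mice without Cre and are the controls. Vglut2 is also used by other glutamatergic neurons, so this driver is not limited to ganglion cells. The labels do not say whether a sample was 1 animal or a pool, so a p-value reflects only how far the samples spread, and that spread may be technical.

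The nuclear pore complex is the channel through which RNA and protein pass between nucleus and cytoplasm. It is built from stacked rings of scaffold nucleoporins, anchored in the envelope by membrane nucleoporins, and its centre is lined by nucleoporins whose phenylalanine-glycine repeats bind passing carriers. A messenger RNA is first bound by the TREX complex (the THO proteins with Ddx39b and Alyref), then handed to the export receptor, a dimer of Nxf1 with Nxt1 or Nxt2, and is released on the cytoplasmic side by Gle1 and a Ddx19 helicase docked on Nup214. Neurons make long-lived pores, whose scaffold proteins are known to turn over very slowly.

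Expression is given in CPM (reads per 1000000 counted in the library) and, where genes are compared with each other, in FPKM (CPM per kilobase of gene length), and a gene is called detected at 10 counts or more. Library totals ran from 7486359 to 21126291 counts, so 3 counts, the most that a count of 0 allows, equal 0.142 to 0.401 CPM. Neither floors nor intervals cover more than counting error, as the reads carry no molecular identifiers and are not independent molecules. For Tgfbr1 the control libraries 1 to 3 held 1, 0 and 1538 counts, the knockout libraries 46, 0 and 793. These counts take in the whole gene and cannot separate its floxed part, so they do not check the genotypes. Ganglion cell markers were detected at 5 to 9 of 12 in the controls and 7 to 9 of 12 in the knockouts. Pou4f2, a transcription factor of ganglion cells, had 1 count in knockout 1 and 0 elsewhere, so no library detected it. Control 3 stood apart: its ganglion cell markers summed to 610.6 CPM, where the other libraries held 2713 to 4777, and its Slc17a6 count was 0. Its 6 endothelial markers summed to 4948 CPM, where the others held 35.9 to 544. Not every ganglion cell marker was low in control 3, where 5 of 12 were detected. Rbpms stood there at 257 CPM, against 0.0718 to 289 CPM in the other libraries, and Pou4f1 at 85.1 CPM, against 0 to 265 CPM. The part of control 3 in the results was not tested. It held most of the control level of the tested members Nup98, Nup54, Nup62, Tpr, Thoc7 and Nup58. Their log2 fold changes are given with and without it. In bulk samples, fewer cells of a type and less RNA per cell cannot be told apart.

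**Figure D1:**
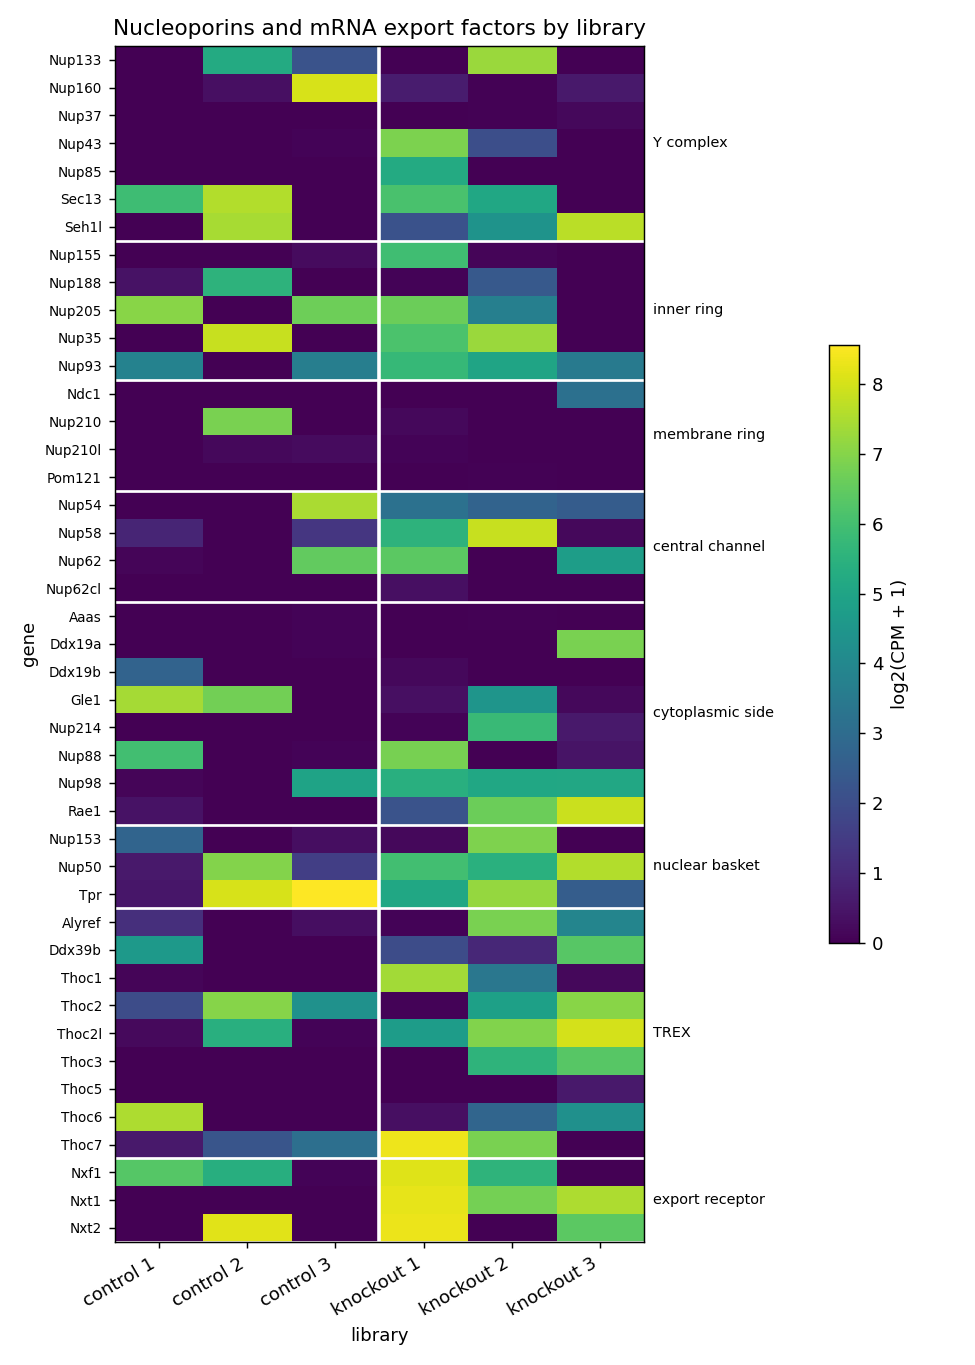
Level of the 43 genes (rows, in groups by their place in the pore or the export pathway) in the 6 libraries (columns, 3 controls and 3 knockouts), coloured by log2(CPM + 1). No row is bright in all 6 columns, and Nxt1 is dark in the 3 controls and bright in the 3 knockouts.

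Several members belong to pairs of related genes, so the sequences were compared first to see how far reads could be assigned to each. Thoc2, a scaffold subunit of the THO complex, and its relative Thoc2l were 87.6% identical over 4742 aligned coding bases. Only 0.148% of the 50-base stretches of Thoc2's coding sequence occurred unchanged in the Thoc2l transcript, and none of its 100-base stretches did. The paired helicases Ddx19a and Ddx19b, neighbours on chromosome 8, were 93.9% identical over 1427 bases, and 48.6% of the 50-base and 30.8% of the 100-base stretches of Ddx19a occurred in Ddx19b. Reads of 50 or 100 bases would thus separate Thoc2 from Thoc2l almost everywhere and Ddx19a from Ddx19b over much less of their length, and the values of the helicases are uncertain. A stretch of 90 coding bases from 1 exon of each gene shows this, taken where the identity came nearest to that of the whole alignment among stretches lying in 1 exon of both genes. The sequences are from GENCODE transcripts on GRCm38, the assembly called mm10, and capitals mark the bases that differ, 11 between the THO genes and 2 between the helicases.
Thoc2 (chrX:41881909-41881998, minus strand): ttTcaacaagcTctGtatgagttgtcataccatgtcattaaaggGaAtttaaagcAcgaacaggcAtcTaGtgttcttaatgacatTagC
Thoc2l (chr5:104517752-104517841, plus strand): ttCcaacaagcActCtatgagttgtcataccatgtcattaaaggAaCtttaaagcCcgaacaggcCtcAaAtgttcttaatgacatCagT
Ddx19a (chr8:110978513-110978602, minus strand): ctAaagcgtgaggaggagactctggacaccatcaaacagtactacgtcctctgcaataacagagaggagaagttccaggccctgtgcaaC
Ddx19b (chr8:111010766-111010855, minus strand): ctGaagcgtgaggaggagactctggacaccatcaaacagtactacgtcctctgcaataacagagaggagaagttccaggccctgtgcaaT

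Knockout libraries held more of these genes than control libraries. Of the 43, 13, 14 and 12 were detected in controls 1, 2 and 3, against 23, 27 and 18 in the knockouts. The means were 13 ± 1 and 22.7 ± 4.51 (SD, n = 3), a ratio of 1.74, and every knockout lay above every control. Over all genes of the table the same ratio was 1.45, from 4258 to 4863 detected genes in the controls and 5790 to 7209 in the knockouts. With every library thinned to 7486359 counts the members' ratio was 1.81 and that of all genes 1.43. Without control 3 the members' ratio was 1.68. The ratio of all genes was not taken without control 3, which detected 4863 genes, against 4258 and 4463 in controls 1 and 2. Summed over the members, the libraries held 734, 1781 and 1077 CPM in controls 1, 2 and 3 and 2312, 1752 and 1667 CPM in knockouts 1, 2 and 3. Control 2 lay among the knockouts on this measure, so the groups overlapped. In each library the sum rested on few genes: the 5 highest members made up 45.8% of it in knockout 2 and 92.9% in control 3.

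**Figure D2:**
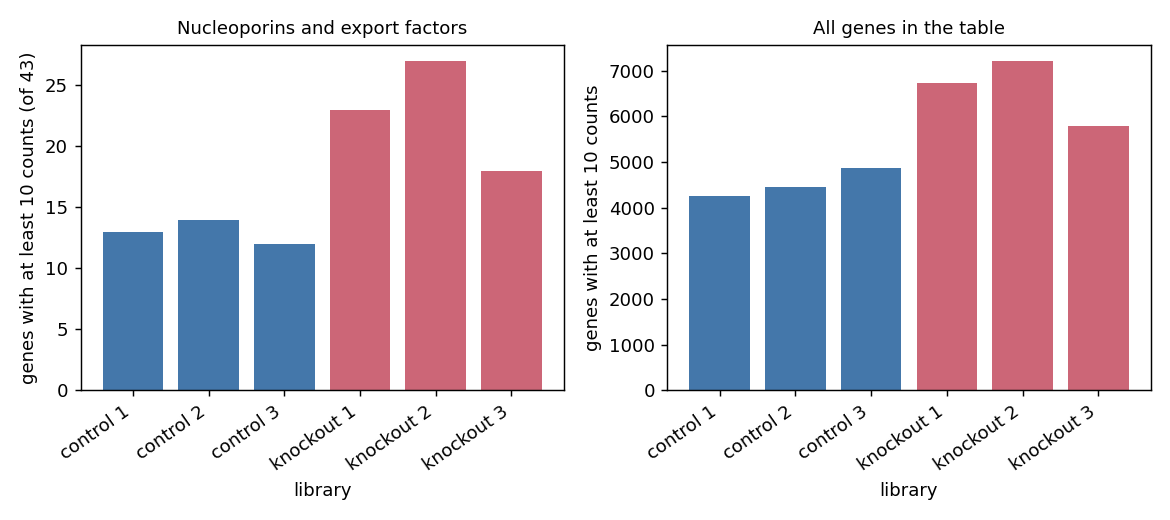
Number of genes with at least 10 counts in each library (bars, blue for controls and red for knockouts), among the 43 members on the left and among all 22413 genes on the right. The controls reach 12 to 14 members and the knockouts 18 to 27, and the same order of the groups is seen over all genes.

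No member was detected in all 6 libraries. Of the 258 values (43 genes in 6 libraries), 105 were a count of 0 (40.7%) and 107 were at 10 counts or more (41.5%). Of the 37 members detected somewhere, 8 were detected in 1 library, 6 in 2, 9 in 3, 10 in 4 and 4 in 5 libraries. Among the 11977 genes of the table detected somewhere, 32.7% were detected in 1 library and 9.99% in all 6. The library with the highest level held a median of 72.2% of a member's CPM summed over libraries, against 71.4% for all detected genes, and it held over 90% for 13 members (35.1%), against 35.2% of all detected genes. On these shares the members lay close to the table as a whole, while fewer members than genes were detected in 1 library or in all 6 and more in 4, where the share was 27.0% of members and 12.6% of genes. By genotype, 23 members were detected in more knockouts than controls, 6 in more controls and 8 in equal numbers. That is 62.2%, 16.2% and 21.6% of the members detected somewhere, beside 54.8%, 18.9% and 26.3% of all detected genes.

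**Figure D3:**
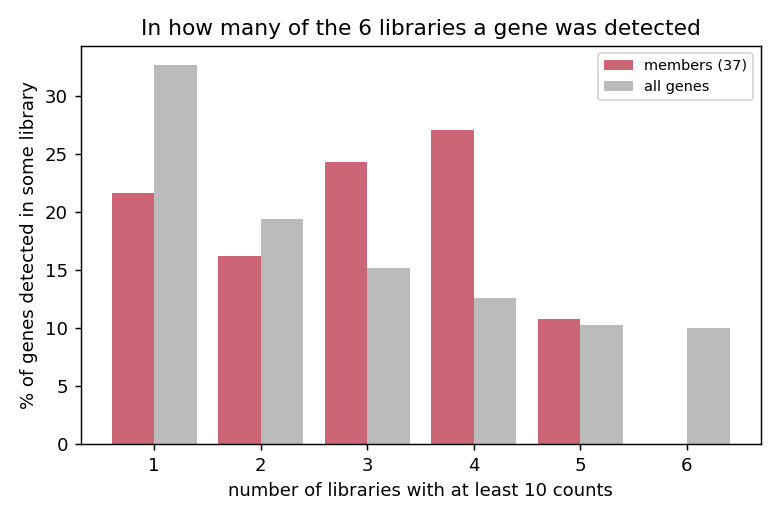
Share of genes (y axis, percent of those detected in some library) by the number of libraries with at least 10 counts (x axis), for 37 members in red and 11977 genes of the whole table in grey. Members have their highest bar, 27.0%, at 4 libraries and none at 6, while the bar of all genes is highest at 1 library, 32.7%.

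In the test of knockout against control, no member passed. Of the 43 members, 23 passed the low-count filter, and edgeR's quasi-likelihood test gave 0 of them a Benjamini-Hochberg adjusted p under 0.05, as for all 5727 genes tested (0.0%). The smallest adjusted p of a member was 0.681. At an unadjusted p under 0.05 edgeR gave 2 members, Nxt1 and Rae1, beside 4.91% of all genes tested. Both were higher in the knockout, as were 4.49% of all genes tested at that p, and 0 members were lower, beside 0.419%. DESeq2 called 4 members at an adjusted p under 0.05, all higher (Nxt1, Rae1, Thoc1 and Thoc3), out of 22 to which it gave an adjusted p, beside 15.0% of all genes with one, 12.6% called higher and 2.39% lower. Limma voom called Nxt1 alone, beside 1.54% of all genes tested, 1.43% higher and 0.105% lower. The log2 fold change was positive for 17 of the 23 and negative for 6, with a median of 1.48, while 54.2% of all genes tested were positive, with a median of 0.14. With Nxt1, which was at 0 in every control, set to its lower bound, the median was the same, 1.48. This had to be so, as the bound also lay above the median. With DESeq2's size factors 16 were positive, and the median over all genes was -0.13. A gene detected only in the knockouts passes this filter through that group, so these tallies describe the fit and are no support for a direction. With each library left out in turn, 12 of the 23 had the same sign throughout and 11 changed sign at least once. The biological coefficient of variation was 2.04, and the members' fold changes had a median standard error of 3.33 on the log2 scale.

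**Figure D4:**
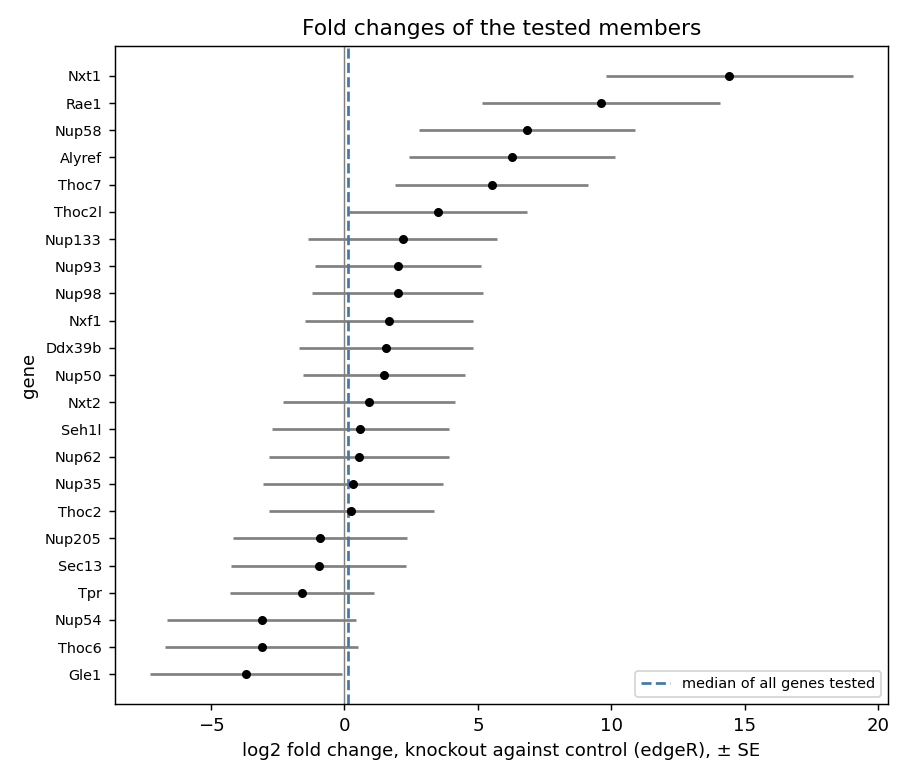
Log2 fold change of knockout against control (x axis, points, edgeR) with its standard error (bars) for the 23 tested members (rows), and the median of all genes tested as a dashed line at 0.14. Of the 23, 17 lie above 0, and bars of several units show how little 3 libraries a group fix a value. The value of Nxt1 and its bar depend on the prior count, since its controls were at 0.

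Nxt1 and Rae1 were the members detected in all 3 knockouts and no control, 5.41% of the 37 detected somewhere, beside 274 genes of the table (2.29%). The reverse pattern was found in 0 members and 16 genes. Nxt1, the small partner that Nxf1 needs to bind the pore's repeats (chr2:148672615-148676026 on GRCm38, protein coding), stood at 302, 107 and 179 CPM in knockouts 1, 2 and 3 and at 0 in controls 1, 2 and 3. All its knockout libraries lay far above the floor of 3 counts, and the groups did not overlap. Taken over each group's total, with 3 counts as the floor over the control group, the knockout level was at least 2173-fold higher. Its mean was 196 ± 98.6 CPM (SD, n = 3) and its edgeR unadjusted p 0.00558 (adjusted p = 0.681). The adjusted p was 0.00147 with DESeq2 and 0.0337 with limma voom, and over all alternatives it ran from 0.00147 to 1. Per length, Nxt1 was the most abundant member in the knockouts, at a mean of 178 FPKM.

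Rae1, an mRNA export factor that binds Nup98, stood at 3.52, 99.2 and 234 CPM in the knockouts, against 0.345, 0 and 0 CPM in the controls. Knockout 1 was low beside the other knockouts, but every knockout lay above every control. With 4 counts over the controls and 4038 over the knockouts, the ratio of group totals was 830 (95% exact binomial interval 324 to 3046), the fitted log2 fold change 9.60 ± 4.46 (SE), and the edgeR adjusted p 0.932 (unadjusted 0.0428). DESeq2 gave an adjusted p of 0.00993, and the range over alternatives was 0.00993 to 1. Nup98, whose repeats form part of the channel's barrier and whose transcript also encodes the scaffold protein Nup96, was the third tested member without overlap. Its level was 41.5, 32.9 and 34.4 CPM in the knockouts, close to one another, and 0.0861, 0 and 29.9 CPM in the controls. The gap between the groups rested on controls 1 and 2, and with DESeq2's size factors control 3 no longer lay below every knockout (mean in the knockouts 36.3 ± 4.57 CPM, SD, n = 3; edgeR adjusted p = 1.00). The log2 fold change was 9.28 without control 3, against 1.36 to 2.10 with any other library left out. These 3 of 23 members stand beside 10.4% of all genes tested that lay higher in every knockout, and 0 of 23 lay lower, beside 2.3%. Without control 3 there were 4 such members, Nup54 being the addition, beside 19.4% of the tested genes. Over all 43 members, tested or not, 5 lay higher in every knockout, with Nup214 and Thoc1 added, beside 4.8% of the whole table, and 0 lay lower, beside 0.799%. Both additions rest on single counts under the floor: Thoc1 had 1 count in knockout 3 and 1 in control 1, and Nup214 had 1 in knockout 1.

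The starts of the genes were read for motifs, since Nxt1 and Rae1 shared a pattern of detection. RefSeq promoters on GRCm38.p6, from 250 bases before to 50 after the start, matched 34 of the 43 members, and the first listed start of each gene was used. Those without an entry were Nup210l, Nup35, Nup43, Nup58, Nup85, Seh1l, Thoc1, Thoc2l and Thoc3. The members' promoters had a median GC content of 62.5% and 24 CpG, against 52.7% and 7 CpG over 27025 promoters. On either strand, the SP site GGGCGG was in 23 of 34 (67.6%; 35.9% of all promoters) and the CCAAT box in 15 (44.1%; 37.9%). The ETS core CCGGAAG was in 10 (29.4%; 9.12%) and the YY1 motif in 5 (14.7%; 0.699%), those of Nup188, Nup205, Nup88, Nup50 and Thoc2. The NRF1 motif was in 2 (5.88%; 0.977%), TATAAA in 2 (5.88%; 14.2%) and the SMAD palindrome GTCTAGAC in 0 (0.211% of all). These motifs are GC-rich in part, as are the members' promoters, and a match is a description of the letters only. The promoters of Nxt1 and Rae1 are shown with every match to these motifs in capitals.
Nxt1 (chr2:148672365-148672664, plus strand), with a CCAAT box and an SP site: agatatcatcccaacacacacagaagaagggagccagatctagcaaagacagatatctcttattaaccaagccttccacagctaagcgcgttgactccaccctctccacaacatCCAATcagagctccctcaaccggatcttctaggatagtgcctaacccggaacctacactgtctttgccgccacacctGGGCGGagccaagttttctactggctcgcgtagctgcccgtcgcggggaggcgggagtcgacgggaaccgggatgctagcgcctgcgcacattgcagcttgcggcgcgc
Rae1 (chr2:172999867-173000166, plus strand), with an SP site and an ETS core: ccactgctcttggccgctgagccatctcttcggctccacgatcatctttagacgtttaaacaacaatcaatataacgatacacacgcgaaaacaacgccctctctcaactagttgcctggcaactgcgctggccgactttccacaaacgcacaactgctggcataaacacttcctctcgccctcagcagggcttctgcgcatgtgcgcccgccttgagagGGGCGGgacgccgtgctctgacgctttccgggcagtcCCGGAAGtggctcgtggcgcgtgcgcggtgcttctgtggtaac

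The other members of the export receptor were read unevenly. Nxf1, the receptor itself, stood at 284, 46.9 and 0 CPM in knockouts 1, 2 and 3 and at 78.0, 40.2 and 0.0611 CPM in controls 1, 2 and 3. The groups overlapped, and 1 library of each genotype was at or near 0 (log2 fold change 1.67 ± 3.16, edgeR adjusted p = 1.00; -0.78 without knockout 1). Nxt2, the X-linked relative of Nxt1, was at 313, 0 and 84.0 CPM in the knockouts, against 0, 290 and 0 CPM in the controls. Knockout 1 detected all 3 genes of the receptor, control 1 detected Nxf1 with neither partner, and control 3 detected none of the 3. Their log2 fold changes were positive for all 3, but those of Nxf1 and Nxt2 turned negative without knockout 1. That of Nxt2 was 0.91 ± 3.21 with all libraries, -0.99 without knockout 1 and 14.0 without control 2.

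**Figure D5:**
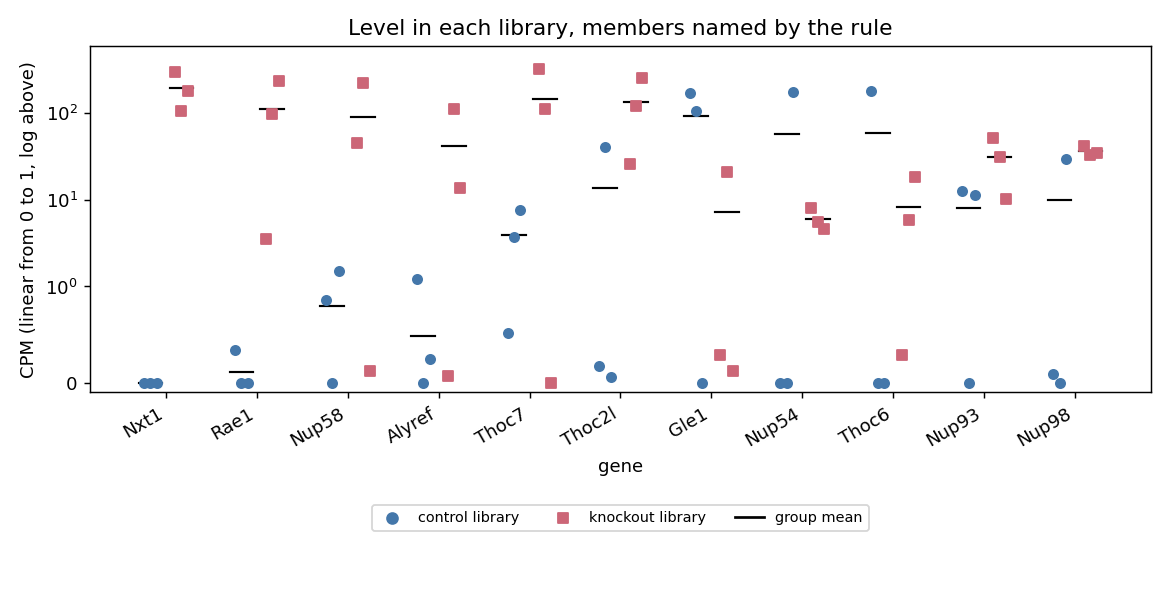
CPM (y axis, linear from 0 to 1 and logarithmic above) in each control (blue circles) and knockout library (red squares) for the 11 members that the rule names, with the group means as bars. Only for Nxt1, Rae1 and Nup98 do the squares all lie above the circles.

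TREX, the complex that loads the receptor onto messenger RNA, had 9 members, of which 4, 3 and 2 were detected in controls 1, 2 and 3, against 4, 8 and 6 in the knockouts. In the fit 6 were tested, 5 with a positive and 1 with a negative log2 fold change. Alyref, the adaptor that contacts Nxf1, was at 0.0718, 112 and 13.8 CPM in the knockouts, against 1.21, 0 and 0.244 CPM in the controls. Its level came from knockouts 2 and 3, while knockout 1 lay within the controls (6.28 ± 3.86, edgeR adjusted p = 1.00; 3.61 without knockout 2). Alyref2, a relative of Alyref outside the member list, stood at 150 CPM in control 1 and at 0 in controls 2 and 3. In knockouts 1, 2 and 3 Alyref2 was at 0, 0.0473 and 0 CPM, the opposite direction in the group means. Shared stretches of Alyref and Alyref2 were not compared. Thoc7, a small THO subunit, was at 325, 114 and 0 CPM in the knockouts, against 0.517, 3.74 and 7.63 CPM in the controls. Here knockout 3 was the lowest of all 6 libraries (5.51 ± 3.61, edgeR adjusted p = 1.00; 6.50 without control 3). Thoc2l stood at 25.7, 123 and 254 CPM in the knockouts against 0.172, 41.0 and 0.0611 CPM in the controls, and control 2 lay above knockout 1 (3.51 ± 3.33, edgeR adjusted p = 1.00). Without control 2 its log2 fold change was 9.89. Its relative Thoc2 was at 0.0718, 28.2 and 131 CPM in the knockouts, against 2.93, 126 and 18.9 CPM in the controls, so that the lowest level of all was in a knockout.

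Thoc6, another THO subunit, went the other way in the group means. It stood at 179 CPM in control 1 and at 0 in controls 2 and 3, and at 0.287, 5.87 and 18.5 CPM in the knockouts. A single control held all its control counts, and without control 1 the log2 fold change turned from -3.10 to 9.72. Thoc6 also shares 14.2% of its exon bases with Hcfc1r1 on the opposite strand, and the strand setting of the counting is not given in the sources used here. Ddx39b, the helicase of TREX, was detected in control 1 (23.6 CPM) and in knockouts 1, 2 and 3 (3.01, 0.947 and 79.4 CPM), and was at 0 in controls 2 and 3. Thoc1 and Thoc3 were too sparse for the edgeR filter. Thoc1 had 2279, 203 and 1 counts in the knockouts, against 1, 0 and 0 in the controls (DESeq2 adjusted p = 0.0091). It shares 24.3% of its exon bases with Usp14 on the opposite strand. Knockouts 1 to 3 held 0, 976 and 640 counts of Thoc3 while each control held 0, so its group total was at least 443-fold higher (DESeq2 adjusted p = 0.0153). Thoc5 had 4 counts in knockout 3 and 0 elsewhere.

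On the cytoplasmic side of the pore 3 of 8 members were tested, Rae1, Nup98 and Gle1. Gle1, which activates the Ddx19 helicases, was at 0.287, 21.1 and 0.123 CPM in the knockouts, against 170, 106 and 0 CPM in the controls. Controls 1 and 2 were high and control 3 was at 0, below every knockout (-3.69 ± 3.61, edgeR adjusted p = 1.00; -8.54 without knockout 2). Without control 3, Gle1 was lower in every knockout than in every remaining control, as were 7.07% of the genes tested. The helicases were each detected once: Ddx19a had 923 counts in knockout 3, and Ddx19b had 66 in control 1. Nup214, the docking site of the helicases, was counted 1, 1155 and 4 times in the knockouts and 0 times in each control. Nup88, its partner, had 709 counts in control 1 and 1536 in knockout 1, with at most 3 in any other library. Aaas, which encodes aladin, had at most 1 count in any library.

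The nuclear basket, the filament structure on the inner face of the pore, has 3 members here. Tpr, its main filament protein, was at 33.6, 148 and 4.82 CPM in the knockouts, against 0.431, 265 and 376 CPM in the controls. Control 1 was the lowest library and control 3 the highest, and the log2 fold change was -1.58 ± 2.71 (edgeR adjusted p = 1.00), -0.76 without control 3 and -3.12 without knockout 2. Nup50, a mobile basket protein that helps import, was at 62.2, 42.3 and 187 CPM in the knockouts, against 0.517, 123 and 2.02 CPM in the controls. Controls 1 and 3 lay under every knockout and control 2 above all but knockout 3 (1.48 ± 3.05, edgeR adjusted p = 1.00; 6.25 without control 2). Nup153, which anchors the basket, was detected at 2499 counts in knockout 2 and 67 in control 1. Knockout 2 was the single library that detected all 3.

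In the central channel, Nup62, Nup54 and Nup58 form the trimer whose repeats fill the pore. Nup58, whose exons overlap a readthrough gene on the same strand over 48.8% of their bases, stood at 44.9, 226 and 0.123 CPM in the knockouts, against 0.861, 0 and 1.53 CPM in the controls. Knockouts 1 and 2 were high and knockout 3 lay within the controls (6.83 ± 4.05, edgeR adjusted p = 1.00; 7.49 without control 3). Nup54 was at 8.04, 5.54 and 4.57 CPM in the knockouts, a narrow range, and at 0, 0 and 175 CPM in the controls. Its negative log2 fold change, -3.10 ± 3.53, rested on control 3, and without that library it was 9.29. Nup62 was at 83.7, 0 and 26.4 CPM in the knockouts, against 0.0861, 0 and 89.5 CPM in the controls, the last again control 3. Its log2 fold change was 0.54, 9.40 without control 3 and -1.27 without knockout 1. All 3 subunits were detected together in control 3 and knockout 1 only. Nup62cl, a relative of Nup62, had 4 counts in knockout 1 and 0 elsewhere.

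The Y complex, the outer scaffold, had 7 members here, and 1, 3 and 2 of them were detected in controls 1, 2 and 3 against 4, 4 and 1 in knockouts 1, 2 and 3. Nup160 had 4265 counts in control 3 and at most 8 in any other library, Nup85 had 509 in knockout 1 and 0 elsewhere, and Nup37 had at most 1 count. Nup43 had 1623 and 66 counts in knockouts 1 and 2 and at most 1 elsewhere. The shared subunits Sec13, which is also a coat protein of vesicles leaving the endoplasmic reticulum, and Seh1l were the most widely read, each in 4 libraries. Sec13 was at 67.9, 33.6 and 0 CPM in the knockouts, against 59.0, 190 and 0 CPM in the controls, and Seh1l at 3.44, 20.1 and 203 CPM against 0, 171 and 0 CPM. Both showed overlapping groups. Nup133 was detected in controls 2 and 3 and in knockout 2, where it reached 153 CPM.

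Among the 5 inner ring members, which join the membrane to the channel, 2 were detected in each control and 4, 4 and 1 in knockouts 1, 2 and 3. Nup93, the ring's linker, was detected in 5 libraries, at 52.1, 31.2 and 10.2 CPM in the knockouts, against 12.7, 0 and 11.5 CPM in the controls. Knockout 3 lay among the controls, so the groups overlapped (2.02 ± 3.11, edgeR adjusted p = 1.00; 1.24 without knockout 1). Nup205 was at 98.7, 12.1 and 0 CPM in the knockouts, against 131, 0 and 100 CPM in the controls. Nup35, which bends the membrane, was at 69.2, 153 and 0 CPM against 0, 229 and 0 CPM. Nup155 had 841 counts in knockout 1 and at most 3 elsewhere, and Nup188 was detected in control 2 and knockout 2. Of the 4 membrane ring members, Nup210 had 842 counts in control 2, Ndc1 had 65 in knockout 3, and Pom121 and Nup210l stayed under 10 counts in every library. Over all groups, 20 members did not enter the test: 6 were never detected, 8 were detected in 1 library and 6 in 2.

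Genes of nuclear transport outside the member list were read in the same way. Of 64 symbols (carriers and the Ran cycle, further pore proteins, and further export factors), 60 were in the table and 43 were tested. The symbols are not all separate genes, as Nupl1, absent under that name, is another name of the member Nup58. With edgeR 0 of the 43 passed an adjusted p of 0.05 and 2 had an unadjusted p under 0.05, both higher (Magohb and Eny2), beside the 4.49% given above. DESeq2 called 5 at an adjusted p under 0.05, all higher: Ahctf1, Magohb, Ncbp3, Xpo7 and Zc3h18, out of 43 with an adjusted p, beside 12.6% of all genes with one. The log2 fold change was positive for 28 and negative for 15, with a median of 0.41. Of the 60, 32, 26 and 38 were detected in controls 1, 2 and 3, against 39, 48 and 40 in the knockouts.

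Eny2, a subunit of the TREX-2 complex that ties transcription to the pore, was at 432, 692 and 256 CPM in the knockouts, against 51.0, 0.134 and 14.1 CPM in the controls, without overlap (4.35 ± 1.90, edgeR adjusted p = 0.841). Magohb, a subunit of the exon junction complex, was at 3.73, 6.53 and 50.01 CPM in the knockouts with 0 counts in each control. Its group total was thus at least 163-fold higher (edgeR adjusted p = 0.681). Magoh, its more abundant relative, was at 198, 166 and 309 CPM in the knockouts, against 434, 297 and 524 CPM in the controls. The log2 fold change of Magoh was -0.84 ± 1.18, with overlapping groups, and shared stretches of the pair were not compared. Ran, the GTPase that drives carrier transport, was at 800.5, 336 and 380.3 CPM in the knockouts, against 198, 171 and 74.7 CPM in the controls, also without overlap (1.92 ± 1.16, edgeR adjusted p = 1.00; 1.26 without knockout 1). Xpo7, an export carrier, was at 55.5, 98.8 and 4.82 CPM against 0.517, 0 and 0.0611 CPM (edgeR adjusted p = 1.00; DESeq2 adjusted p = 0.0186).

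Of the 43 tested, 5 lay higher in every knockout (Ran, Xpo7, Eny2, Cetn3 and Magohb) and 3 lower (Tnpo1, Ddx39a and Rbm8a), beside the 10.4% and 2.3% given above. Ddx39a, the close relative of Ddx39b, was at 0, 10.8 and 0 CPM in the knockouts, against 614, 46.9 and 25.5 CPM in the controls (-6.11 ± 3.50, edgeR adjusted p = 1.00; -14.44 without knockout 2 and -3.15 without control 1). Tnpo1, an import carrier of RNA-binding proteins, was at 0.0718, 168 and 1.73 CPM in the knockouts, against 693, 186 and 343 CPM in the controls, the highest knockout lying just under the lowest control (-2.88 ± 2.03, edgeR adjusted p = 1.00; -8.92 without knockout 2). Ranbp1, a cofactor of Ran, was read evenly in all 6 libraries, at 789, 789.7 and 1074 CPM in the knockouts, against 753, 1118 and 832 CPM in the controls. Ranbp1 was chosen after its values were seen, as a gene without gaps in detection.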

How the data were processed

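RNA was measured by bulk sequencing in 6 libraries of retinal ganglion cells, 3 per genotype; per the labels' protocols, 1 ng of total RNA went into each VAHTS Universal V6 library. The authors deposited raw counts per gene and FPKM, 1 column per sample (0 columns of other samples). The tools named, per the submitters' processing notes, were HISAT2, fastp, DESeq2, HTSeq and R 3.2.0, with build mm10 and no roles; neither the annotation nor strandedness was given in the sources used here. The deposited FPKM were the counts scaled by gene length and library total alone.

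From the counts, edgeR 4.0.16 (TMM, filterByExpr, robust quasi-likelihood F test, genotype the only term, Benjamini-Hochberg over all 5727 genes tested, threshold 0.05) gave the main test. The standard errors of its log2 fold changes were back-calculated, as the absolute log2 fold change divided by the square root of F. DESeq2 1.42.0 and limma 3.58.1 (R 4.3.3) were alternatives, with other scalings and filters, log2(FPKM + 1), a replicate block and each library left out; DESeq2 gave no adjusted p to 16513 genes, left as missing. Members and lists were chosen with earlier results of these data known. Named members were the 10 with the smallest edgeR p, those without overlap and a mean of at least 20 counts, and any detected in all 6 libraries; of the other transport genes, the 6 with the smallest p. Further members were named as examples of their role group, and every member is accounted for. Alyref2 and Magoh were added as relatives of genes given here, with their values known.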

Additional observations from a re-analysis of the deposited data

How the results depend on the processing

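The number of members passing an adjusted p of 0.05, 0 with edgeR, was 4 with DESeq2 and 1 with limma voom, and 0 under every other scaling, filter and FPKM setting run and with each library left out (0 to 0). Over all genes these fits called 885 with DESeq2 and 88 with limma voom. The labels give both genotypes samples 1 to 3 and do not state a pairing. Same-numbered samples did not deviate together over the tested genes (Pearson's r -0.02, 0.03 and -0.01). At a biological coefficient of variation of 2.04 these values cannot decide whether the samples were paired. With the replicate block 0 members passed, and the median log2 fold change of the tested members was 5.16 in place of 1.48, and that of all genes tested 1.10 in place of 0.14. With 1 library left out that median ran from 1.22 to 4.19, and the highest value was without control 2. Tested members without overlap and higher in the knockout numbered 3 to 6 with 1 library left out. There were 5 without control 1, 6 without control 2, 5 without knockout 1 and 6 without knockout 3. Beside these stood 17.3%, 18.0%, 15.1% and 14.8% of all genes tested. Tested members that lay lower numbered 0 to 1, with 1 each without control 1 (Tpr), control 2 (Nup205) and control 3 (Gle1). Beside these stood 7.96%, 6.74% and 7.07% of all genes tested. Fewer libraries make such gaps more common by construction. The ratio of detected members ran from 1.58 to 1.92 with a library left out, and was 1.55 at 1 count and 1.91 at 30 counts. The same ratio over all genes was not taken at these settings, so they do not compare the members with the table. The ratio of summed CPM, 1.60, ran from 1.34 to 2.11, and was 1.83 with TMM-scaled totals and 2.16 in FPKM. Of 249 refitted log2 fold changes of the 17 named genes, 236 kept their sign and did not pass the threshold. These include the DESeq2 fits of Nup54, Thoc6 and Nup98, which had no adjusted p and so no side of the threshold. Another 5 passed only in the alternative (DESeq2 for Nxt1, Rae1, Magohb and Xpo7, limma voom for Nxt1), and 8 turned. Those of Nup54 were 3.48 with limma voom, 1.31 on log2(FPKM + 0.1), 6.89 with the replicate block and 9.29 without control 3, with a range of -3.74 to 9.29 over the libraries left out. Those of Thoc6 were 2.12, 1.16 and 7.46 under the same 3 settings and 9.72 without control 1, with a range of -4.48 to 9.72. For both genes 1 control held all control counts. The cause of these and the other changes was not tested.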
